A study of Homo sapiens with 12 samples.

Results

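The 250 genes described here are the zinc finger genes of human chromosome 19, chosen as every gene of the expression table whose symbol starts with ZNF and a number and whose position is on that chromosome, out of 19973 genes in all. Zinc finger genes of the same naming on other chromosomes numbered 265, and chromosome 19 held 1220 other listed genes. RNA-seq had been done on H460 and A549, established human non-small cell lung cancer lines, either non-treated or treated with ISP-I. The authors state that both lines carry homozygous mutations that inactivate KEAP1. ISP-I is isovalerylspiramycin I, a macrolide purified from the antibiotic carrimycin, given at 10 µM for 48 h. Each of the 4 groups had 3 libraries, and the labels do not say whether these came from separate cultures, so a p-value measures only the spread between these libraries, which may be technical.

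C2H2 zinc finger proteins bind DNA through strings of short finger units, each held by a zinc ion, and successive fingers are joined by a conserved linker. Most of the chromosome 19 genes arose by local duplication and lie in clusters, and many encode a KRAB domain, which recruits TRIM28 and, through it, the histone methyltransferase SETDB1, so that chromatin at the bound site carries H3K9 methylation. Transposable elements are their best known targets.

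Of the 250 genes, 194 were assigned by the deposited KEGG annotation to its class of KRAB-domain zinc finger proteins, against 317 genes of the class in the whole table. They ran from chr19:2819868 to 58481230 (hg38) and fell into 16 blocks when a new block was opened at each gap of more than 1 Mb. Their listed lengths were long, with a median of 5187.5 bases beside 4317 bases over all genes. GC content was taken from 1 GENCODE transcript of each gene, the one marked as canonical. Its median was 42.3%, beside 49.2% over all genes and 60.0% over the other genes of chromosome 19. Near-identical sequence and overlap limit single values: 64 of the genes overlap another listed gene on the same strand and 47 overlap one on the opposite strand, and the strand setting of the counting is not given in the sources used here.

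The stretch that codes for the linker between fingers was the most widely shared sequence of the family. A 21-base word from the GENCODE transcripts was found in 75 of the 250 genes, with a median of 3 copies where present and 19 copies in ZNF208. Among 19645 other genes it was found in 43, of which 36 were zinc finger genes of other chromosomes. The capitals mark its most common 12 bases, present in 162 of the 250 genes and 127 other genes.
Linker word: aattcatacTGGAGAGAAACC

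Promoters of the family were read for 5 short motifs. For 218 of the 250 genes the RefSeq promoter table (GRCh38.p14) gave the 300 bases from 250 before to 50 after the start, and the most upstream start of each gene was read on both strands. The letters CCGGAAG, the core bound by ETS factors, were in 45.0% of these promoters and in 14.3% of the 15165 promoters of all table genes. CCAAT, the box bound by NF-Y, was in 54.6% against 36.6%, the GC box GGGCGG was in 67.4% against 59.1%, TATAAA was in 2.3% against 9.7%, and the AP-1 site TGACTCA was in 2.3% against 3.6%. None of these motifs contains another, and they were chosen after promoters and changes had been looked at.

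The 5 genes at the start of the chromosome are printed because ZNF554, ZNF555 and ZNF556 among them hold the family's largest changes after ISP-I. ZNF77 rose less, and ZNF57 did not pass the test in H460 and was not tested in A549. Each line gives 30 bases around the CCAAT box (capitals) on the gene's strand nearest the gene start. ZNF77 held 6 CCAAT boxes on either strand of its 300 bases, ZNF555 and ZNF556 held 5 each, ZNF57 held 4 and ZNF554 held 2. ZNF77, ZNF555 and ZNF556 were the only members with 5 or more, a number reached by 67 of the 15165 promoters (0.44%).
ZNF554 (chr19:2819618-2819647, plus strand): tatCCAATggcaagccgccgggaaacgacg
ZNF555 (chr19:2841402-2841431, plus strand): tggcagcactgtCCAATcagaagcgcggct
ZNF556 (chr19:2867260-2867289, plus strand): gaagagaaccatCCAATcacagccccaggg
ZNF57 (chr19:2900861-2900890, plus strand): cttagagattgtCCAATcagggcgccgctt
ZNF77 (chr19:2944976-2945005, minus strand): cccgagatctgtCCAATcagaccccgagga

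ZNF432, ZNF841 and ZNF160, from a block further along the chromosome, were among the largest rises in H460 and carried the ETS letters (capitals) within 10 bases of the RefSeq start. For ZNF432 that start lies inside the listed span of the gene, whose minus-strand start is at 52095738. Which start was used in these cells was not tested. The promoters of ZNF554, ZNF555 and ZNF556, which rose most, held 0 copies of the ETS letters. The ETS letters were in 45.3% of the members that rose over 2-fold in H460 and 36.4% of those in A549, beside the 45.0% of all members, so their share was no higher among the risen genes.
ZNF432 (chr19:52048831-52048860, minus strand): cctgaggaaaagCCGGAAGgccgcattccg
ZNF841 (chr19:52095744-52095773, minus strand): tttcctgcacacCCGGAAGcagatcgcgct
ZNF160 (chr19:53103401-53103430, minus strand): ttgcccacagacCCGGAAGtggatcgtgcg

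The libraries held 14225849 to 17874422 reads on listed genes. The genes described here took a small part of them. In non-treated H460 they held 0.172, 0.160 and 0.170% of the reads of the 3 libraries, and after ISP-I 0.395, 0.464 and 0.329%. In non-treated A549 the shares were 0.222, 0.222 and 0.175%, and after ISP-I 0.341, 0.344 and 0.357%. The treated libraries were thus all above the non-treated ones in both lines, by a ratio of the means of 2.37 in H460 and 1.68 in A549. An exact 2-sided permutation test gave p = 0.1 in each line, the smallest value that 3 against 3 libraries allow. Without ZNF146, the gene with the highest mean level over the 12 libraries, the ratios were 2.34 and 1.62. Non-treated A549 library 3, numbered in the order of the table, stood below its 2 partners. For that reason the values of many single genes are given for each library. Others are given only as a mean with its SD or as a log2 change, which do not show that library apart. The H460 ISP-I libraries also differed among themselves. Over all genes, chi-squared per degree of freedom against sampling noise was 54.4 and 92.0 for the pairs with H460 ISP-I library 3. It was 26.7 and 30.8 for the pairs with non-treated A549 library 3. These are shares of bulk RNA, in which fewer cells of a type and less RNA per cell cannot be told apart.

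**Figure D1:**
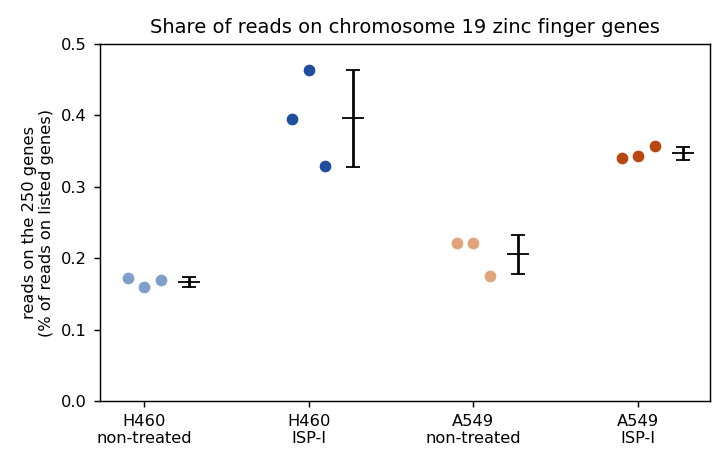
Share of reads on the 250 zinc finger genes of chromosome 19 (percent of reads on listed genes, vertical axis) in each library of the 4 groups; points are libraries, and the bar beside them is the mean with its SD (n = 3). Every ISP-I library lies above every non-treated library of its line, at 0.329% or more in H460 and 0.341% or more in A549.

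Levels were low. FPKM, the read number scaled to gene length and library size, allows genes to be compared with each other. The median of the 250 mean levels was 0.568 FPKM in non-treated H460 and 0.824 FPKM after ISP-I, and 0.602 and 0.818 FPKM in A549. In non-treated H460 89 genes had a mean of at least 1 FPKM and 3 of at least 10 FPKM, and after ISP-I these were 122 and 18. In A549 they were 94 and 5 before, and 121 and 9 after. No read was seen in 39 genes in non-treated H460 and in 52 in non-treated A549, and 17 genes had no read in any of the 12 libraries.

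Epithelial markers were present in part. Of 6 epithelial markers, non-treated H460 had 4 at 0.1 FPKM or more, with CDH1 at 0, and A549 had 6. Their summed level was 358 to 432 FPKM in non-treated and 329 to 420 FPKM in ISP-I libraries of H460, and 1440 to 1830 and 1250 to 1270 FPKM in A549. The summed level of 8 markers of leukocytes, endothelium, erythroid cells and fibroblasts was 9.61 to 11.1 FPKM in non-treated H460 and 5.06 to 5.80 FPKM after ISP-I, and 0.973 to 1.27 and 1.09 to 1.40 FPKM in A549, with the T cell gene CD3E at 0 throughout. COL3A1 made up most of the H460 sum, at 8.60 ± 0.497 FPKM before and 2.25 ± 0.194 FPKM after ISP-I. PDGFRB rose by 1.97 log2 units in H460 and 1.66 in A549 (limma, adjusted p = 2.01e-05 and 0.000321), from 0.543 to 2.40 FPKM in the former and from 0.0194 to 0.278 FPKM in the latter. Their part in the results was not tested.

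The main comparison asked how each gene changed after ISP-I within a line. In H460, 181 of the 250 genes averaged 0.1 FPKM or more across the 6 libraries and were tested on log2(FPKM + 0.1) with limma, adjusted by Benjamini-Hochberg over all 13423 genes tested. Of these, 95 were higher after ISP-I (52.5%) and 22 were lower (12.2%), beside 27.8% and 41.6% of all genes. With a change over 2-fold as well, 70 were higher and 13 lower, beside 17.3% and 25.8% of all genes. The median difference was 0.62 log2 units, and that of all genes was -0.25. The median of all genes shifted to 0.02 when FPKM was divided by median-of-ratios factors. Under that scaling 35.1% of all genes were higher and 32.4% lower, and 110 of the members were higher and 16 lower with a median of 0.89.

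In A549, 174 genes were tested among 13705. Higher were 96 (55.2%) and lower 10 (5.75%), beside 30.4% and 26.9% of all genes. Over 2-fold, 47 were higher and 4 lower, beside 9.75% and 7.75%. Without non-treated library 3, 98 were higher and 14 lower. The median difference was 0.59 log2 units and that of all genes was 0.03.

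The filter on low values could favour genes seen in a single group, so every member was also counted without it. Of all 250, the mean was higher after ISP-I for 156 in H460 and lower for 70, and 24 were equal or without a read. In A549 165 were higher, 53 lower and 32 equal. Over all 19973 genes the mean was higher for 40.9% in H460 and for 46.6% in A549, beside 62.4% and 66.0% of the members. Among tested members, 2 in H460 and 8 in A549 had a non-treated mean under 0.1 FPKM, and 4 in H460 had an ISP-I mean under it.

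**Figure D2:**
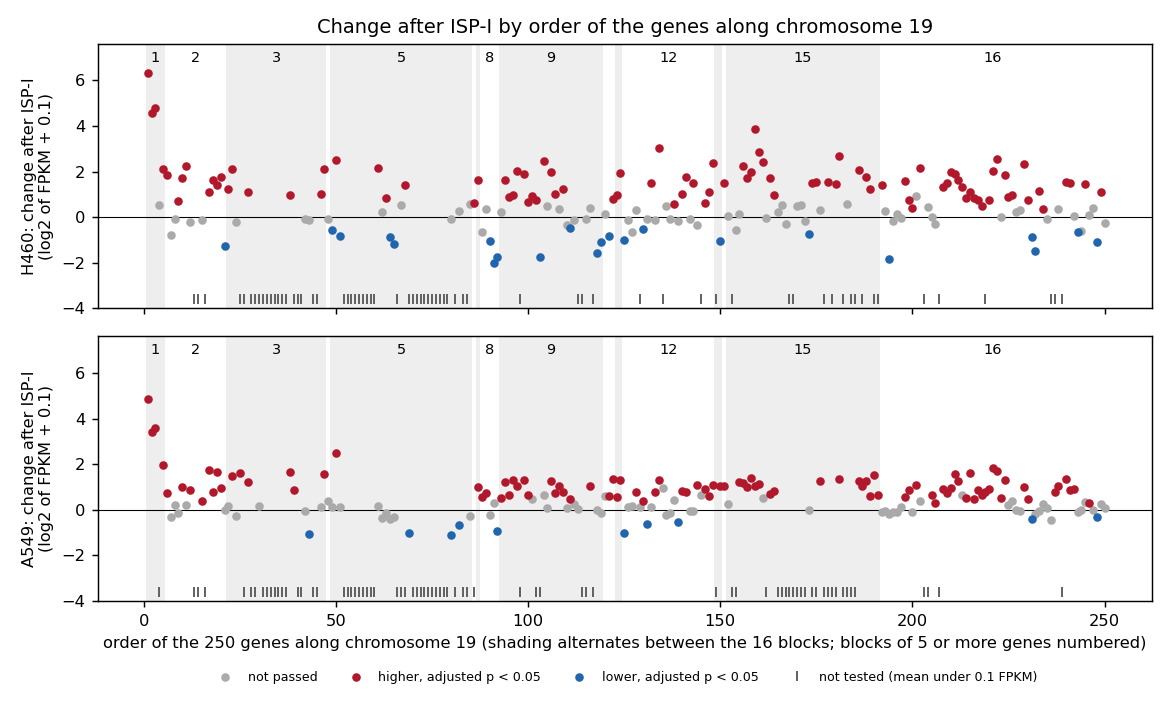
Change after ISP-I (difference of log2(FPKM + 0.1), vertical axes, H460 above and A549 below) by the order of the 250 genes along chromosome 19; red and blue points passed limma at an adjusted p under 0.05, grey points did not, and ticks mark genes under 0.1 FPKM. Shading alternates between the 16 blocks. Block 1 holds the largest rises of both panels, and most genes of block 5 are ticks.

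Many zinc finger genes on other chromosomes rose as well, with a share nearer to that of the members in H460 than in A549. For H460 the share was 48.7%, beside 52.5% of the members and 27.8% of all genes. The A549 shares were 45.9%, 55.2% and 30.4% in the same order. The shares that fell were 25.9% for H460 and 8.66% for A549, beside 12.2% and 5.75% of the members. Of the zinc finger genes on other chromosomes, 109 of 224 tested were higher in H460 and 58 lower (median 0.44), and 106 of 231 were higher in A549 and 20 lower (median 0.34). Of the other genes of chromosome 19, 203 of 811 were higher and 354 lower in H460, and 242 of 864 were higher and 288 lower in A549. Of the genes of other kinds lying inside the larger blocks, 29 of 85 were higher and 32 lower in H460, and 28 of 86 were higher and 28 lower in A549. The differences between these groups of genes were not tested.

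Genes of the KRAB class and the rest had like counts in H460, with 74 of 141 higher and 17 lower for the class and 21 of 40 higher and 5 lower for the rest. In A549 the counts were 78 and 8 of 137 for the class and 18 and 2 of 37 for the rest, with medians of 0.64 and 0.28. By base composition, genes under 50% GC had 81 of 150 higher in H460 and 86 of 144 in A549. Those of at least 50% GC had 14 of 31 and 10 of 30, with medians of 0.13 and 0.14, and all genes of at least 50% GC had medians of -0.47 and -0.06. Over non-members under 50% GC the medians were -0.08 in H460 and 0.10 in A549. After removal of each library's trend with GC content, the counts of higher and lower members became 93 and 24 for H460 and 106 and 11 for A549. In H460 these were 51.4% and 13.3%, beside 30.7% and 40.8% of all genes. In A549 they were 60.9% and 6.32%, beside 35.2% and 27.5% of all genes. Zinc finger genes on other chromosomes then had 51.3% higher in H460 and 52.4% in A549.

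The first block, chr19:2819868-2944971, held 5 genes of the KRAB class in a row and the largest rises of the family. ZNF554 (ENSG00000172006, chr19:2819868-2836735) was at 0.0615, 0.210 and 0.107 FPKM in non-treated H460, where 5, 18 and 9 reads were counted, and at 17.4, 19.2 and 16.2 FPKM after ISP-I. In A549 it was at 0.236, 0.157 and 0.216 FPKM before and 8.70, 8.85 and 8.62 FPKM after. It rose by 6.34 ± 0.24 (SE) log2 units in H460 (limma, Benjamini-Hochberg adjusted p = 2.33e-07) and by 4.87 ± 0.14 in A549 (limma, adjusted p = 3.89e-07), with no overlap of the groups.

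ZNF555 (ENSG00000186300, chr19:2841437-2860471) went from 0.155, 0.162 and 0.204 FPKM to 6.39, 8.24 and 4.98 FPKM in H460, a rise of 4.58 ± 0.21 log2 units (limma, adjusted p = 6.12e-07). In A549 it went from 0.379, 0.414 and 0.278 FPKM to 4.78, 4.32 and 4.94 FPKM, a rise of 3.40 ± 0.15 (limma, adjusted p = 1.84e-06). ZNF556 (ENSG00000172000, chr19:2867335-2883445) was close to silent before ISP-I, and ISP-I libraries held it at 2.52, 3.27 and 2.50 FPKM in H460 and 1.09, 1.09 and 1.07 FPKM in A549. The only non-treated library with a read for it was an H460 one at 0.0100 FPKM. In A549, set against 3 reads in each non-treated library, it was at least 34.5-fold higher after ISP-I.

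ZNF77 (ENSG00000175691, chr19:2933218-2944971, minus strand) was already present, at 2.0, 1.73 and 1.35 FPKM in non-treated H460 and 0.981, 0.865 and 1.0 FPKM in A549. It rose to 6.86, 8.70 and 7.19 FPKM in H460 (2.11 ± 0.18 log2 units, limma adjusted p = 1.13e-05) and to 4.59, 3.43 and 4.09 FPKM in A549 (1.97 ± 0.14, limma adjusted p = 1.39e-05). ZNF57, which lies between ZNF556 and ZNF77, stayed low. Its mean was 0.164 ± 0.0590 FPKM (SD, n = 3) before and 0.276 ± 0.0411 FPKM after ISP-I in H460 (limma, adjusted p = 0.0794), and it was under the minimum in A549.

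The genes on either side had smaller changes. THOP1, a peptidase gene that ends 4061 bases before ZNF554, rose by 0.90 log2 units in H460 and 0.87 in A549. TLE6, which starts 32567 bases after ZNF77, fell by 0.82 in H460 and differed by -0.17 in A549 (limma, adjusted p = 0.565). The summed level of the 5 zinc finger genes went from 2.16 to 34.8 FPKM in H460, while the A549 sums were 1.55 before and 18.6 FPKM after.

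**Figure D3:**
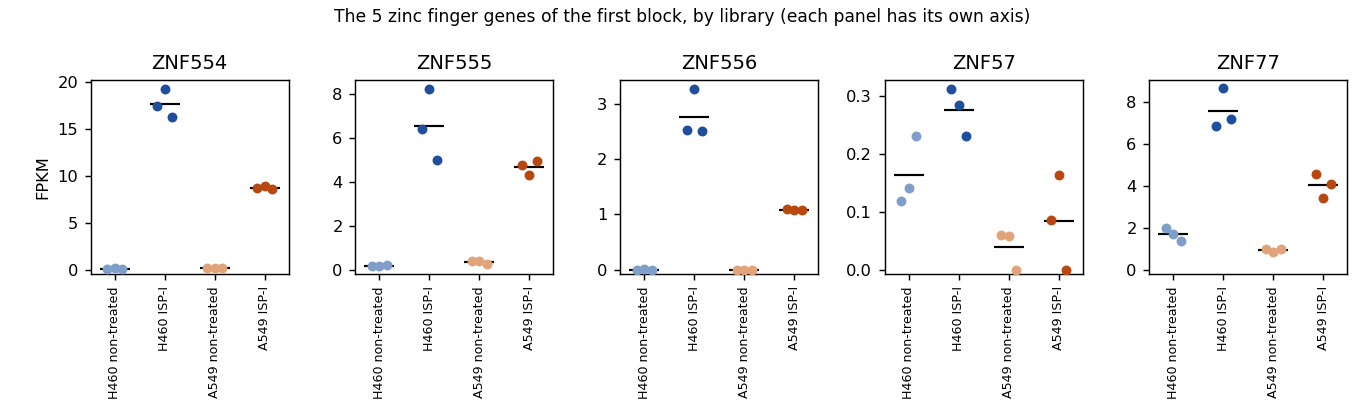
FPKM of the 5 genes of the first block in each of the 12 libraries; points are libraries, horizontal bars are means, and each panel has its own linear axis. ZNF554, ZNF555, ZNF556 and ZNF77 lie higher in every ISP-I library than in the non-treated ones of the line, whereas ZNF57 stays under 0.4 FPKM in all libraries.

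Across all promoters read, members with 3 or more CCAAT boxes had a median change of 1.92 log2 units in H460 (8 tested) and 1.97 in A549 (7 tested). Members without one had medians of 0.65 (84 tested) and 0.62 (81 tested), those with 1 box 0.67 and 0.52, and those with 2 boxes 0.90 and 0.63. Any CCAAT box was present in 48.4% of the members that rose over 2-fold in H460 and 47.7% of those in A549, below the 54.6% of all members. Over all genes with 3 or more CCAAT boxes the medians were -0.32 in H460 (517 tested) and -0.11 in A549 (530 tested). The first block supplies 3 of the tested members with at least 3 boxes in A549 and one more in H460, and the relation was not tested.

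Elsewhere on the chromosome the blocks differed in how much was expressed and in what changed. Block 15, chr19:51571283-53580269 with 40 genes from ZNF175 to ZNF331, had 16 higher and 1 lower of 29 tested in H460 and 16 higher and 0 lower of 19 in A549. Block 16, chr19:55476617-58481230 with 59 genes, had 30 higher and 5 lower of 53 in H460 and 29 higher and 2 lower of 55 in A549. Block 2 had 8 higher and 1 lower of 13 in H460 and 8 higher and 0 lower of 13 in A549. Block 9 had 12 higher and 4 lower of 23 in H460 and 13 higher and 0 lower of 21 in A549. In block 12 the counts were 9 and 2 of 21 in H460 and 10 and 3 of 24 in A549. In block 3 they were 6 and 0 of 9 in H460 and 6 and 1 of 12 in A549. Each of these blocks had a larger share of higher genes than the 27.8% and 30.4% of all genes in H460 and A549. The lowest was block 12, at 42.9% and 41.7%. The differences between blocks were not tested.

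Block 5, chr19:19668796-24129968 with 37 genes from ZNF101 to ZNF254, was mostly silent, and 22 of its genes were under 0.1 FPKM in every group. ZNF91 and ZNF93, which repress SVA and L1 retrotransposons, were among its low members. ZNF91 was at 0.0405, 0.0319 and 0.0781 FPKM in non-treated H460, at 0.119, 0.268 and 0.0196 FPKM after ISP-I, and at most 0.0325 FPKM in any A549 library, and ZNF93 reached at most 0.0120 FPKM in any library. Of the tested genes of the block, 4 of 13 were higher and 4 lower in H460. In A549 1 of 12 was higher and 3 were lower. The share higher in H460, 30.8%, was near the 27.8% of all genes. The A549 share of 8.33% was below their 30.4%. The gene higher in both lines was ZNF14, at 0.868, 0.80 and 0.725 FPKM before and 5.51, 6.28 and 3.48 FPKM after ISP-I in H460 (2.49 ± 0.23 log2 units, limma adjusted p = 1.67e-05) and 0.759, 1.33 and 0.457 before and 3.93, 5.66 and 5.11 FPKM after in A549 (2.49 ± 0.32, limma adjusted p = 0.000295).

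Block 8, chr19:34677639-34964229 with 5 genes, was the block of at least 5 genes in which no member was higher in H460. ZNF30 was at 1.87, 1.99 and 2.10 FPKM in non-treated H460 and 0.509, 0.569 and 0.245 FPKM after ISP-I, a fall by 2.0 ± 0.26 log2 units (limma, adjusted p = 0.000144). In A549 it was at 4.07, 3.94 and 2.52 FPKM before and 4.25, 4.13 and 4.17 FPKM after (0.28, limma adjusted p = 0.208). ZNF792 fell in both lines, by 1.72 ± 0.25 in H460, where it had 1 read in the ISP-I libraries together, and by 0.95 ± 0.13 in A549 (limma, adjusted p = 0.000316 and 0.000397). ZNF599 fell in H460 by 1.05 (limma, adjusted p = 0.00627), and its mean was under 0.3 FPKM in all groups. Under median-of-ratios scaling 1 gene of the block was higher in H460.

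Neighbouring members had a Spearman correlation of their changes of 0.25 over 136 pairs in H460 and 0.35 over 133 pairs in A549. For the difference between non-treated lines it was 0.40 over 141 pairs. Pairs share libraries and, where genes overlap, may share reads.

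Among the other large rises in H460, ZNF432 (ENSG00000256087, chr19:52031378-52095738, minus strand) was at 1.25, 0.638 and 1.29 FPKM before and 14.5, 23.9 and 12 FPKM after ISP-I, a rise of 3.86 ± 0.31 log2 units (limma, adjusted p = 8.59e-06). Its neighbour ZNF841, whose listed span overlaps it, was at 2.77, 2.09 and 2.68 FPKM before and 21.1, 26.6 and 11.5 FPKM after (2.85 ± 0.28, limma adjusted p = 2.85e-05). ZNF160, which lies further along the block, went from 1.06, 0.719 and 1.09 to 6.63, 10.2 and 4.38 FPKM (2.70 ± 0.29, limma adjusted p = 5.17e-05). For each of these genes, ISP-I library 3 was the lowest of the treated and still above every non-treated library. In A549 they rose by 1.04, 1.11 and 1.36 log2 units, less than in H460 by the interaction test (limma, adjusted p = 7.9e-05, 0.00152 and 0.00721).

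ZNF222 in block 12 rose by 3.05 ± 0.33 log2 units in H460, from a mean of 0.810 ± 0.475 to 6.84 ± 0.922 FPKM, and by 1.30 ± 0.19 in A549. ZNF416 in block 16 went from 2.03 ± 0.372 to 12.3 ± 1.18 FPKM in H460, while its A549 values were 1.95 ± 0.520 before and 6.46 ± 0.480 FPKM after. Its listed span overlaps ZIK1. ZNF550 rose by 2.05 and 1.83 log2 units, ZNF561 by 1.39 and 1.65, and ZNF17 by 1.10 and 1.61 in H460 and A549. The limma adjusted p of these changes was at most 0.00224.

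The members with the highest levels mostly rose as well. ZNF146, a protein made almost wholly of fingers without a KRAB domain, had the highest mean over the 12 libraries. It was at 16.3, 9.11 and 14.3 FPKM in non-treated H460 and 38.0, 66.1 and 26.8 FPKM after ISP-I. In A549 it was at 73.1, 75.3 and 27.8 FPKM before and 113, 129 and 135 FPKM after. It rose by 1.65 ± 0.33 log2 units in H460 and 1.23 ± 0.34 in A549 (limma, adjusted p = 0.00181 and 0.0157). Non-treated A549 library 3 was low and widened its spread. ZNF317 went from 10.6 ± 0.872 to 35.7 ± 4.08 FPKM in H460, while its A549 values were 9.20 ± 0.628 before and 18.6 ± 1.5 FPKM after. ZNF526 went from 3.65 ± 0.503 to 14.2 ± 1.62 FPKM in H460, while its A549 values were 7.62 ± 0.308 before and 19 ± 1.47 FPKM after. ZNF121, ZNF574, ZNF581 and ZNF787 also passed the test upwards in both lines, by 0.76 to 1.62 log2 units in H460 and 0.55 to 0.89 in A549. ZNF579 did not pass in either line (0.26 in H460, limma adjusted p = 0.278; -0.04 in A549, limma adjusted p = 0.71).

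Among the members with a known role, ZNF274, which brings SETDB1 to the 3′ ends of zinc finger genes, was at 4.50, 4.96 and 4.83 FPKM in non-treated H460 and 13.5, 14.3 and 13.2 FPKM after ISP-I. In A549 it was at 4.03, 3.81 and 3.88 FPKM before and 7.01, 6.72 and 7.71 FPKM after. It rose by 1.5 ± 0.12 in H460 and 0.85 ± 0.09 log2 units in A549 (limma, adjusted p = 7.77e-06 and 0.000101). ZNF473, which takes part in the processing of histone mRNA, went from 2.27 ± 0.337 to 6.56 ± 0.578 FPKM in H460, while its A549 values were 3.14 ± 0.265 before and 6.51 ± 0.301 FPKM after. ZNF350, a partner of BRCA1, rose by 2.25 and 1.18 log2 units.

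ZNF324 rose in H460 by 1.13 log2 units and differed by 0.23 in A549 (limma, adjusted p = 0.184). ZNF444 rose by 0.40 in H460 (limma, adjusted p = 0.0398), a call that was lost when single libraries were left out, and differed by -0.09 in A549. ZNF536, a neural gene, was at most 0.187 FPKM in any library, and its rise of 0.62 log2 units in H460 (limma, adjusted p = 0.0359) was lost with a pseudocount of 1. ZNF675, which binds TRAF6, fell in A549 by 0.67 log2 units (limma, adjusted p = 0.0284), a call likewise lost when single libraries were left out, and differed by 0.27 in H460 (limma, adjusted p = 0.539).

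Falls were fewer. In H460 ZNF524 was at 3.67, 2.60 and 2.79 FPKM before and 0.776, 0.625 and 0.888 FPKM after ISP-I, a fall by 1.85 ± 0.20 log2 units (limma, adjusted p = 4.35e-05). ZNF587B fell by 1.47, ZNF738 by 1.16, ZNF324B by 1.10, ZNF552 by 0.84 and ZNF611 by 0.75 log2 units. ZNF587B shares near-identical sequence with ZNF587, and its value is uncertain for that reason. The falls of ZNF324B and ZNF552 also passed in A549, at 0.31 and 0.41 log2 units (limma, adjusted p = 0.0299 and 0.0303), and these calls were lost when single libraries were left out.

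The 2 lines were set side by side for the 160 genes tested in both. Higher in both were 66, lower in both 4, and 4 were lower in H460 and higher in A549, beside 17.6%, 21.3% and 3.79% of the 12708 genes tested in both lines. No member was higher in H460 and lower in A549, as 1.56% of all genes were. The Spearman correlation of the changes across these genes was 0.67, and that over all genes was 0.65, as a description, since genes are not independent replicates.

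**Figure D4:**
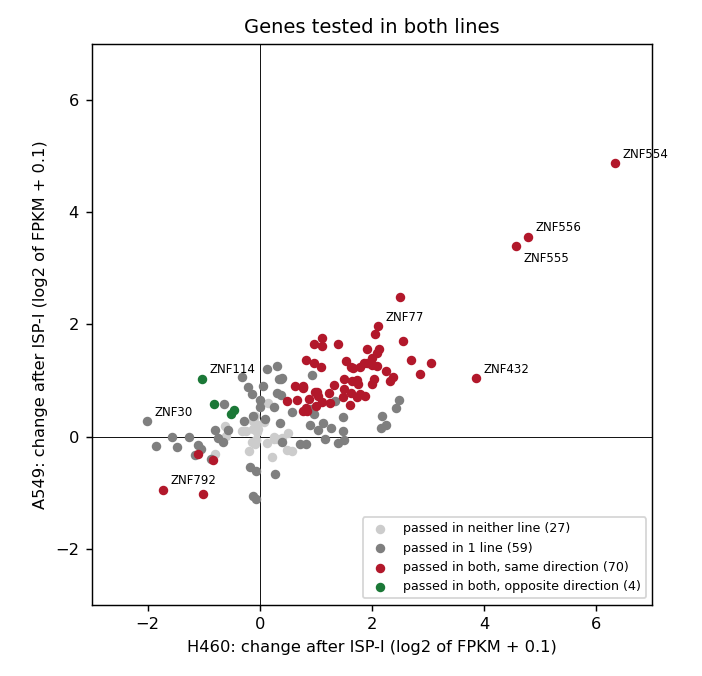
Change after ISP-I in H460 (horizontal axis) and A549 (vertical axis), both as differences of log2(FPKM + 0.1), for the 160 genes tested in both lines; colours show in how many lines a gene passed limma at an adjusted p under 0.05. ZNF554, ZNF555 and ZNF556 stand at the upper right, and the 4 green points, ZNF114 among them, were lower in H460 and higher in A549.

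The difference between the lines was tested as the interaction over all 12 libraries. Of 188 genes tested, the change was more positive in H460 for 47 and more positive in A549 for 31, beside 17.3% and 34.7% of all genes. Under median-of-ratios scaling these counts were 74 and 18. ZNF554 and ZNF555 rose more in H460, with differences of 1.47 and 1.18 log2 units (limma, adjusted p = 0.00109 and 0.00255). ZNF77 did not pass (0.14, limma adjusted p = 0.629). ZNF556 had a non-treated mean of 0.00334 FPKM in H460 and 0 in A549. Its difference of 1.22 log2 units therefore compares only the treated levels, and the sizes of its rises in the 2 lines cannot be compared. ZNF432 had a difference of 2.81 ± 0.39 and ZNF699 of 2.04 ± 0.24 log2 units (limma, adjusted p = 7.9e-05 and 2.32e-05). ZNF699 was at 0.648, 0.409 and 0.397 FPKM before and 2.60, 2.91 and 2.41 FPKM after ISP-I in H460, whereas in A549 it was at 0.395, 0.362 and 0.391 before and 0.466, 0.434 and 0.475 FPKM after.

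ZNF114 (ENSG00000178150, chr19:48270081-48287608) went in opposite directions. In H460 it was at 2.28, 2.05 and 2.09 FPKM before and 0.984, 1.06 and 0.961 FPKM after ISP-I. In A549 it was at 2.59, 2.37 and 2.27 FPKM before and 5.62, 4.95 and 4.53 FPKM after. The non-treated lines did not differ detectably in it (-0.16 log2 units, limma adjusted p = 0.291), and the change in H460 minus that in A549 was -2.06 ± 0.16 log2 units (limma, adjusted p = 1.28e-06). ZNF45, ZNF527 and ZNF780B had the same pattern with smaller changes, of -0.52, -0.45 and -0.81 log2 units in H460 and 0.40, 0.47 and 0.59 in A549. Their calls within a line were lost under other scalings or without single libraries, and ZNF780B resembles its neighbour ZNF780A.

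Counted at any size of difference, the non-treated lines differed in the members about as often as in all genes. Of 185 tested, 53 were higher in H460 (28.6%) and 67 higher in A549 (36.2%), beside 28.6% and 31.5% of all genes. With quantile normalization the counts were 66 and 49. Over 2-fold these were 34 and 39, beside 10.1% and 16.6%, and with a pseudocount of 1 they were 8 and 10. In 20 genes (8.0%) every non-treated H460 library was at 0.1 FPKM or more and every non-treated A549 library under it, beside 1.72% of all genes. The reverse held for 10 genes (4.0%), beside 2.77%.

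Block 15 held 11 of these 20 genes, several of them with a few reads in A549, and 10 of the 11 lay between ZNF610 and ZNF816, chr19:52336243-52962911. This stretch was picked out after the levels had been seen, so it is a description. Its 16 zinc finger genes summed to 13.5 FPKM in non-treated H460 and 22.5 FPKM after ISP-I, but to 0.885 and 1.38 FPKM in A549. ZNF468 was at 3.52, 2.31 and 2.94 FPKM in non-treated H460 and 0.0799, 0.0644 and 0.0770 FPKM in A549 (4.10 ± 0.19 log2 units, limma adjusted p = 4.41e-07). ZNF83 was at 2.14, 1.25 and 1.81 FPKM against 0.00876, 0.0169 and 0 FPKM, and ZNF28, which overlaps ZNF468 in its listed span, at 1.92, 1.2 and 2.28 against 0.0471, 0.0683 and 0.0227 FPKM. ZNF808, which silences MER11 elements and is needed for pancreas development, was at 1.37, 1.16 and 0.965 FPKM against 0.0561, 0.0136 and 0.0406 FPKM.

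Within this stretch, 4 genes were higher and 1 lower after ISP-I of 12 tested in H460, and the share of 33.3% higher was near the 27.8% of all genes. ZNF83 and ZNF808 did not pass there (-0.16 and 0.51 log2 units, limma adjusted p = 0.602 and 0.0676), and ZNF611 fell. In A549 only 2 of the genes were tested. ZNF468 rose there to 0.368, 0.278 and 0.304 FPKM (1.26 ± 0.20 log2 units, limma adjusted p = 0.00101).

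ZNF331 at the end of the same block was the opposite case. This imprinted gene was at 0.0400, 0.0606 and 0.0618 FPKM in non-treated H460 and 4.53, 4.28 and 3.71 FPKM in A549 (-4.79 ± 0.17 log2 units, limma adjusted p = 6.97e-08). After ISP-I it rose in A549 to 6.43, 6.44 and 6.70 FPKM. ZNF837, ZNF823, ZNF254 and ZNF792 were also higher in non-treated A549, with differences of -2.91, -2.77, -2.49 and -2.15 log2 units (H460 minus A549). ZNF43 in block 5 had no read in non-treated H460 and was at 0.937, 0.930 and 1.07 FPKM in A549, where it fell to 0.396, 0.487 and 0.420 FPKM.

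**Figure D5:**
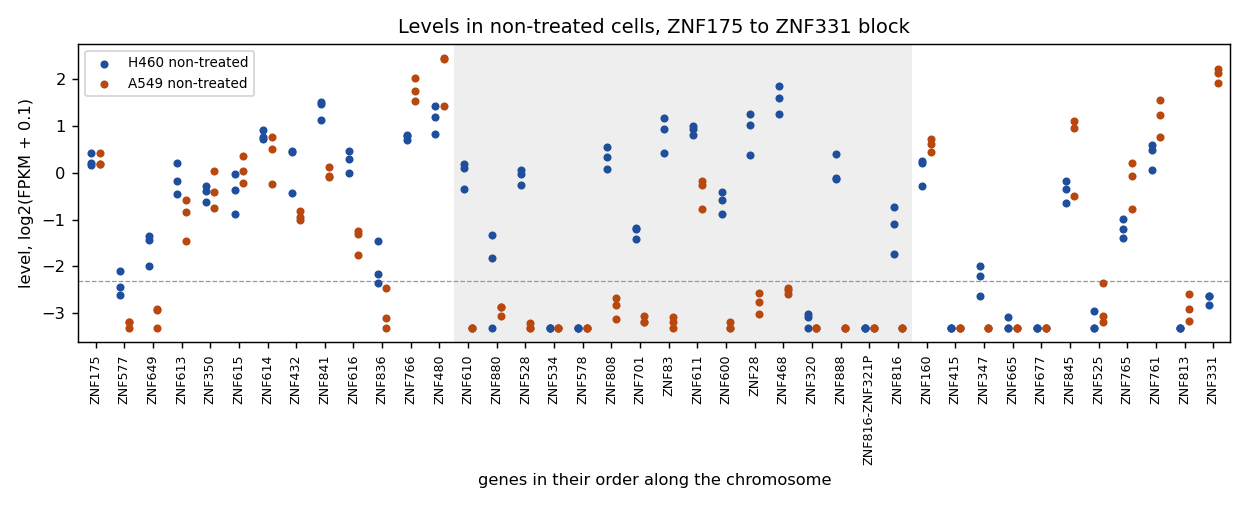
Level in non-treated cells (log2(FPKM + 0.1), vertical axis) of the 40 genes of block 15 in their order along the chromosome; blue points are the 3 H460 libraries and orange points the 3 A549 libraries, the dashed line is 0.1 FPKM, and shading marks ZNF610 to ZNF816. In the shaded stretch 10 genes lie above the line in H460 and below it in A549, and ZNF331 at the right end is the reverse.

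The machinery that KRAB zinc finger proteins act through had its own counts. Of 42 genes of the KRAB corepressor complex and H3K9 methylation, 7 were higher and 20 lower after ISP-I in H460. These are 16.7% and 47.6%, beside 27.8% and 41.6% of all genes, so the share lower was near that of all genes. In A549 3 were higher and 17 lower, or 7.14% and 40.5%, beside 30.4% and 26.9% of all genes. The list is mixed and also holds KDM genes such as the demethylase gene KDM3A. In H460 KDM3A, KDM3B and KDM4C were higher, KDM4A was lower and KDM4B did not pass. TRIM28, the corepressor itself, was at 193.8 ± 18.1 FPKM in non-treated H460 and 107.6 ± 17.7 FPKM after ISP-I, and at 205.7 ± 29.7 and 154.2 ± 4.92 FPKM in A549. It fell by 0.86 and by 0.41 log2 units (limma, adjusted p = 0.00128 and 0.0107). SETDB1 rose in H460 by 0.55 log2 units (limma, adjusted p = 0.00683) and differed by -0.09 in A549 (limma, adjusted p = 0.50).

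Larger falls were seen in UHRF1, which guides maintenance DNA methylation, from 53.9 ± 6.09 to 9.31 ± 0.854 FPKM in H460, while its A549 values were 41.0 ± 2.05 before and 19.1 ± 0.598 FPKM after. The DNA methyltransferase DNMT3B went from 3.29 ± 0.277 to 0.146 ± 0.0458 FPKM in H460, while its A549 values were 4.45 ± 0.242 before and 1.34 ± 0.215 FPKM after. CBX1, which codes for an HP1 protein that binds methylated H3K9, and the deacetylase HDAC1 fell in both lines, by 1.92 and 1.93 log2 units in H460 and by 0.99 and 1.04 in A549. KDM3A, which removes H3K9 methylation, rose in both, by 1.85 and 1.0 log2 units. SETDB2 also rose in both lines, by 0.76 in H460 and 1.15 in A549. KDM4C, GATAD2B and TASOR rose in H460, by 1.16, 0.92 and 0.75 log2 units, and did not pass in A549. Whether these changes bear on the zinc finger genes was not tested.

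Zinc finger genes of chromosome 19 with other names, such as ZFP and ZSCAN, gave 4 higher and 5 lower of 12 tested in H460 and 4 higher and 2 lower of 11 in A549. In H460 these are 33.3% and 41.7%, near the 27.8% and 41.6% of all genes. ZFP30 rose in both lines (0.74 and 1.36 log2 units), and ZFP14 fell in both, by 2.01 and 0.60.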

How the data were processed

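RNA-seq libraries of H460 and A549 cells (3 non-treated and 3 ISP-I libraries each) were analysed. The authors deposited FPKM values for each library, made from paired-end reads that FastQC filtered, HISAT2 aligned to the hg38 genome and HTSeq 0.9.1 assigned to genes. The annotation version and strand setting are not given in the sources used here. FPKM times gene length gave whole reads for 100% of values (tolerance 0.1), which gave the depth of 14225849 to 17874422 reads. 4 broken table lines were left out. Columns were matched to groups by name and carry no replicate numbers.

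Values were tested as log2(FPKM + 0.1) with limma 3.58.1 (trend, 2-sided, R 4.3.3), within each line and as an interaction over 12 libraries, for genes averaging 0.1 FPKM or more. The pseudocount understates changes of low genes. Benjamini-Hochberg adjustment ran over all genes tested, and rose, fell, higher and lower mean an adjusted p under 0.05. The method was tested on simulated data in which few genes changed and no library stood apart. The real data differ in both, so that test does not measure the rate of false calls here. Correlations and the read shares were computed in Python 3.11.15.

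The genes, lists and tests were chosen with earlier results of these data known. Named genes were the 8 largest rises and falls in each line with at least 1 FPKM and no overlap of groups, the 8 highest levels, a list of genes of known role, the 5 clearest differences between lines and between non-treated lines in each direction, and genes with opposite changes. ZNF57, ZNF599, ZNF43 and the flanking genes were named after their values were seen. KEGG classes stood in for protein features, which were not analysed here. No duplicate libraries were found. Alternatives were a pseudocount of 1, a minimum of 1 FPKM or none, other scalings, GC correction, 1 fit of all libraries, limma voom on the recovered reads, a block gap of 0.5 Mb, and leaving out each library.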

Additional observations from a re-analysis of the deposited data

Results flagged for a closer look

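The genes ZNF432, ZNF699, ZNF628, ZNF587B, ZNF114, ZNF780B, ZNF45 and ZNF527 were picked out because their change after ISP-I differed between H460 and A549 by the interaction test of limma. The difference of the changes, H460 minus A549 in log2 units, was 2.81 for ZNF432, 2.04 for ZNF699 and 1.51 for ZNF628. It was -1.28 for ZNF587B, -2.06 for ZNF114, -1.40 for ZNF780B, -0.919 for ZNF45 and -0.919 for ZNF527. ZNF628 was at 2.40, 2.33 and 3.05 FPKM before and 7.94, 6.26 and 6.71 FPKM after ISP-I in H460, and at 3.15, 3.13 and 3.65 before and 3.15, 3.27 and 2.76 FPKM after in A549. These 8 were selected from 188 tested genes by the size of their p or by opposite calls. Groups of 3 libraries are too small for a test of a single outlying library.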

How the results depend on the processing

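No paired analysis was possible because the columns carry no replicate numbers. Leaving out each library in turn gave 85 to 103 members higher and 17 to 24 lower in H460, with 63 to 79 and 10 to 13 over 2-fold. In A549 it gave 78 to 98 higher and 5 to 14 lower, with 32 to 50 and 2 to 3 over 2-fold; the lower count was 6 without ISP-I library 2, 5 without ISP-I library 3, 5 without control library 1 and 6 without control library 2, and control library 3, which stood apart, left 98 higher and 14 lower. Between non-treated lines the ranges were 46 to 54 for genes higher in H460 and 49 to 70 for those higher in A549, and for the difference of changes 41 to 62 and 26 to 34.

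A minimum of 1 FPKM gave 11 lower members in H460, 6 of them over 2-fold, 4 lower in A549 with 0 over 2-fold, and 22 higher and 41 lower in non-treated H460 against A549, with 10 and 20 over 2-fold, since fewer genes were tested. A pseudocount of 1 gave 3 lower over 2-fold in H460, 17 higher and 0 lower over 2-fold in A549, and 8 higher and 10 lower over 2-fold between non-treated lines. Median-of-ratios scaling gave 7 lower over 2-fold in H460, 74 and 18 positive and negative differences between lines and 1 higher gene in block 8. Quantile scaling gave 8, 71 and 19, and voom with median-of-ratios factors, added after seeing the data, gave 17 negative differences. The other counts of members computed under these settings stayed within 1.5 times.

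Among single genes, 12 values changed sign, all without passing the test. With the GC trend removed ZNF675 was -0.14 in H460, and ZNF579 was 0.0903 and ZNF444 0.0234 in A549. When libraries were left out, ZNF675 in H460 ranged from -0.12 (without ISP-I library 2) to 0.51, and in A549 ZNF524 from -0.55 to 0.0214 (without control library 3), ZNF611 from -0.21 to 0.10 (without ISP-I library 2) and ZNF579 from -0.0867 to 0.0215 (without control library 2). The cause was not tested. Another 62 values no longer passed and 13 newly passed. Low levels limit what can be seen, since most of the genes lie near 1 FPKM and 17 have no read.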
